A study of Mus musculus with 64 samples.

Results

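The genes of the mitochondrial genome were examined in total RNA of mouse microglia, the resident macrophages of the brain. They were chosen as every row of the count table whose symbol in the GENCODE M21 annotation starts with mt-, which gave 37 of 49671 genes: 13 mRNA genes, 22 tRNA genes and 2 rRNA genes. All 37 are in the table. Microglia of 2 brain regions, hippocampus and frontal cortex, were taken from adult male C57BL/6 mice (C57BL6/N in the study's methods) by selection of CD11b-positive cells after mechanical dissociation in the cold. The 64 libraries form 16 groups of 4, one for each region, phase (Day, Night) and condition (Ctr0, Ctr1, Cogn, Soci). What the condition names stand for is not stated in the labels, and nothing says whether the replicates are separate animals, so p-values measure the spread between these libraries only. All groups share strain, sex, isolation and ribosomal RNA depletion. The labels give no treatment or allele, and CD11b is also carried by other myeloid cells, which limits the sample as a model of microglia.

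The mitochondrial genome is a small circle that is read from both of its strands as long precursors, which are cut at the tRNAs into rRNAs, mRNAs and tRNAs. Its mRNAs encode core subunits of the respiratory chain and of ATP synthase, its rRNAs form the ribosome inside the organelle, and its tRNAs serve that ribosome. All proteins that copy, transcribe, cut and translate it come from nuclear genes. Here 28 genes belong to the heavy-strand transcript, which is the plus strand of the annotation, and 9 to the light-strand transcript, which holds 1 mRNA gene (mt-Nd6) and 8 tRNA genes.

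Stretches of this genome also exist as copies in nuclear chromosomes, and 7 annotated pseudogenes on chromosome 1 (GRCm38, chr1:24611535-24616197, minus strand) lie in the same order as mitochondrial positions 6381 to 11042, a block of 4662 bases. The start of the aligned part of mt-Nd3, a subunit of complex I, and of mt-Co1, the catalytic subunit of complex IV, are shown with their copies because they hold all the bases at which the annotated copies in that block differ. Capitals mark the differing bases, and the sequences were read from the GENCODE M21 transcripts.
mt-Nd3: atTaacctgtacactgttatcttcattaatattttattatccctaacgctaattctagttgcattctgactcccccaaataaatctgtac
Gm28438: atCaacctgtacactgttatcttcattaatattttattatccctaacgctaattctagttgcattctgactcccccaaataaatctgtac
mt-Co1: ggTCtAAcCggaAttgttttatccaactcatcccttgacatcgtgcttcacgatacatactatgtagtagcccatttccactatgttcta
Gm29216: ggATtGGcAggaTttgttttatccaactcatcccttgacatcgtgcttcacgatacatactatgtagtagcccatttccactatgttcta
Over their whole aligned lengths mt-Nd3 and Gm28438 differed at 1 of 345 bases, and mt-Co1 and Gm29216 at 6 of 492. The copies of mt-Co2 (681 bases), mt-Atp6 (678 bases), mt-Co3 (783 bases), mt-Nd4l (294 bases) and the first 876 bases of mt-Nd4 differed at 0 bases.

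The light-strand gene mt-Nd6 and the heavy-strand gene mt-Nd5 face each other and share their last bases, which are shown because a ratio of both genes is used below. Capitals mark the 14 bases that overlap, and each line gives the last 90 bases of a gene, 5′ to 3′ on its own strand.
mt-Nd6: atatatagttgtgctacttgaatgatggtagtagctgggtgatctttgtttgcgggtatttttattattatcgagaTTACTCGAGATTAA
mt-Nd5: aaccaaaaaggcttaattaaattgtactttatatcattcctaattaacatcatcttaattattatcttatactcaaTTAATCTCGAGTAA
These bases lie at positions 13552 to 13641 (mt-Nd6, minus strand) and 13476 to 13565 (mt-Nd5, plus strand). The counts followed strand: in the whole table, 1233 small genes inside an intron of an expressed gene on the same strand had a median of 12.1 counts per kb and 712 such genes on the opposite strand 0.0239.

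The depth ran from 10.2 to 84.5 M counts per library, with medians of 17.7 M in hippocampus and 13.4 M in frontal cortex. A level at which a library holds 3 counts lay between 0.0355 and 0.295 CPM (counts per M counts of a library), and such floors cover counting error only. Nuclear ribosomal loci took large shares of the counts, with Gm26917 at 34.7% and Gm42418 at 5.66% on average. The 10 microglia markers, such as P2ry12 and Tmem119, summed to between 10980 and 23550 CPM in the 4 sets of region and phase, and none was at 0. Any pair of replicates differed by more than sampling noise, with a chi-square of 8.32 to 288 per degree of freedom over 96 pairs.

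The mitochondrial genes together held 3.69% ± 1.79 of all counts (SD, n = 64), from 1.12% to 10.7%. The rRNA genes took 3.17% ± 1.60, the mRNA genes 0.521% ± 0.207 and the tRNA genes 0.000562% ± 0.000240. The light-strand genes held 0.00458% ± 0.00221. The rRNA values are what was left after depletion, which was designed to remove mitochondrial as well as cytoplasmic rRNA.

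Counts were unevenly spread over the genes. Of the 37, 18 were listed at 0 in all 64 libraries and mt-Atp6 had 1 count in 1 library. The other 18 had more than 3 counts in at least 1 library and 10 of them in every library. All 11 genes that lie wholly in the block copied on chromosome 1 were among the 19 with at most 1 count: the mRNA genes mt-Co2, mt-Atp8, mt-Atp6, mt-Co3, mt-Nd3 and mt-Nd4l and the tRNA genes mt-Ts1, mt-Td, mt-Tk, mt-Tg and mt-Tr. In these mRNA genes other than mt-Atp8, from 97.0% to 99.8% of all windows of 150 bases, the read length, were present in a copy. mt-Atp8 and the tRNA genes have no annotated copy of their own and were compared only by position. The copies themselves held few counts, from 8 in Gm28439 to 2713 in Gm29216 over all libraries.

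The remaining 8 genes at 0 were tRNA genes outside that block: mt-Tf, mt-Tv, mt-Tl1, mt-Tn, mt-Tc, mt-Th, mt-Ts2 and mt-Tl2. Their nearest genes on the same strand lay between 0 and 32 bases away on both sides, apart from mt-Tf, which starts at base 1 of the sequence. Each of the tRNA genes with counts had 70 or more free bases, or the end of the annotation, on at least 1 side. All 22 tRNA genes are shorter than a read. Of the tRNA genes with counts, mt-Tw had most (3337 in all libraries) and is followed by 311 bases free of genes on its strand. It was trailed by the light-strand genes mt-Tq (1473) and mt-Tp (1216). The 3 are shown because they were the only tRNA genes tested between day and night.
mt-Tw: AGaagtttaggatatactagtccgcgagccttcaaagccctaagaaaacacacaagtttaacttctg
mt-Tq: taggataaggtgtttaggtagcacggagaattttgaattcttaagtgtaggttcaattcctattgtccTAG
mt-Tp: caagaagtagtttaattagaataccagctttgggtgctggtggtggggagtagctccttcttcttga
Capitals mark bases that are also annotated to a neighbour on either strand, and the genes lie at positions 4950 to 5016 (plus), 3772 to 3842 (minus) and 15356 to 15422 (minus). The remaining 6 tRNA genes had 314 (mt-Te), 175 (mt-Ty), 92 (mt-Ti), 61 (mt-Tt), 60 (mt-Tm) and 53 (mt-Ta) counts. A setting for reads that match several places or several genes is not given in the sources used here, so its part in these zeros was not tested. The zeros do not show whether these genes were transcribed.

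Per kb of gene, the mean levels over the 64 libraries were 16886 CPM for mt-Rnr2 and 5212 CPM for mt-Rnr1, the rRNAs of the large and the small ribosomal subunit. Among the mRNAs mt-Co1 led with 1619 CPM per kb. It was followed by mt-Cytb, the complex III subunit, with 789, and by the complex I subunits mt-Nd1 (668), mt-Nd5 (344), mt-Nd2 (247), mt-Nd4 (173) and mt-Nd6 (83.1). mt-Co1 and mt-Nd4 lie in part in the copied block. With all their counts divided by the bases outside it alone, the values were 2376 and 476 CPM per kb. This assumes that no counted read lay in the copied part, which was not tested. Only under that assumption does mt-Nd4 lie above mt-Nd5. Among tRNA genes mt-Tw had 41.6, mt-Tq 17.0 and mt-Tp 14.8 CPM per kb.

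**Figure D1:**
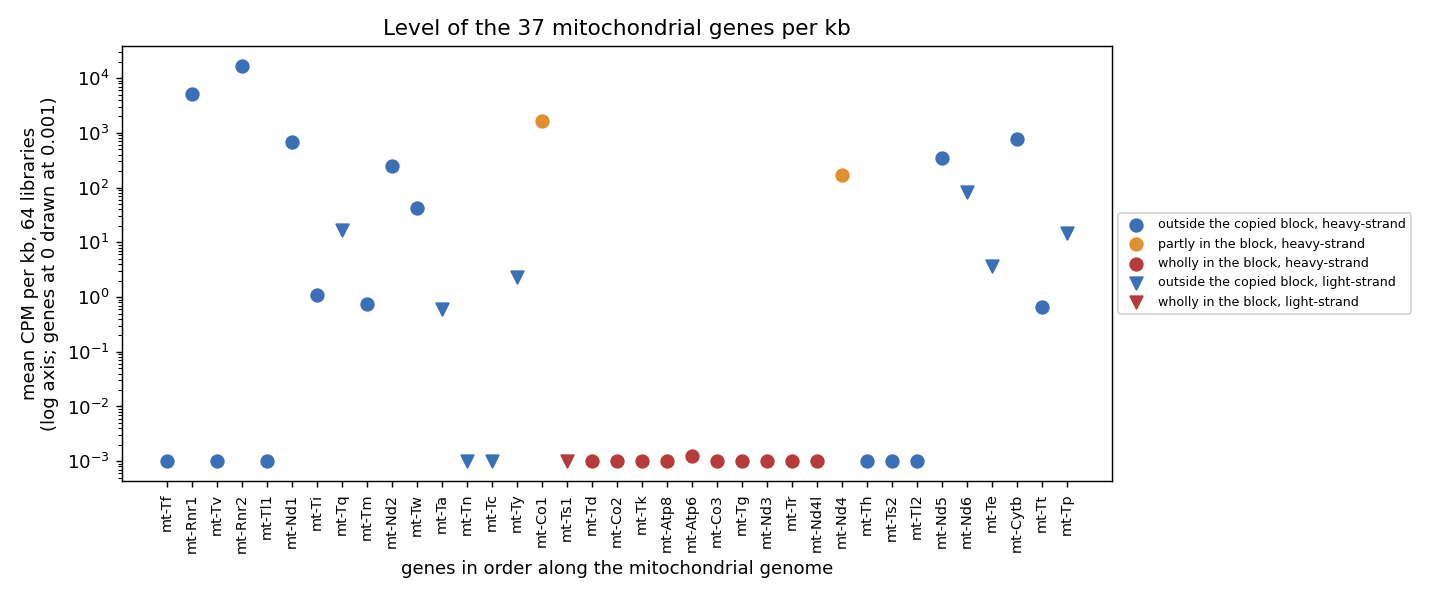
Mean level of each of the 37 genes over 64 libraries, in CPM per kb on a log axis, with genes in their order along the mitochondrial genome; colour gives the position relative to the block copied on chromosome 1 and shape the strand. The 11 genes wholly in the block all lie at the bottom, and mt-Rnr2 has the highest level.

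The comparison of day and night asked whether the mitochondrial transcripts differed between the phases. Per the paper each phase was sampled at a single time, in mice kept on a reversed light-dark cycle, so a course over the day cannot be seen. All 12 members that passed the filter on low counts were lower by day in both regions, and all 12 passed the threshold of an adjusted p of 0.05 (edgeR's quasi-likelihood test, Benjamini-Hochberg over all genes). The log2 changes ran from -1.30 to -0.51 in hippocampus (median -0.73) and from -1.45 to -0.76 in frontal cortex (median -0.97), where the median of all tested genes was 0.02 and -0.02. Of all genes, 42.2% passed in hippocampus, 18.8% in the direction lower by day, and in frontal cortex 41.8% passed, 21.3% lower by day. The 12 were the 2 rRNA genes, the 7 mRNA genes with counts and mt-Tw, mt-Tq and mt-Tp. The other 25 were not tested, and all of them had low or no counts.

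The rRNA level was spread widely. In hippocampus mt-Rnr2 ran from 10159 to 27034 CPM by day (median 16470) and from 14655 to 57506 CPM at night (median 30592), scaled by TMM. Of the 16 night libraries 9 lay above the highest day library, so the phases overlapped. The log2 change was -0.84 ± 0.17 (SE; edgeR, adjusted p = 0.000132), or 1.79-fold lower by day. In frontal cortex mt-Rnr2 ran from 9640 to 30588 CPM by day (median 18665) and from 11956 to 79067 CPM at night (median 36332), with 10 night libraries above the highest day library. The change was -0.97 ± 0.19 (edgeR, adjusted p = 0.000189). mt-Rnr1 had a median of 2424 CPM by day (977 to 9232) and 5482 CPM at night (2435 to 12911) in hippocampus. In frontal cortex its median was 3318 CPM by day (1334 to 5661) and 6530 CPM at night (1420 to 13770). The phases overlapped in both regions, and the log2 changes were -0.95 ± 0.26 (edgeR, adjusted p = 0.00347) and -1.03 ± 0.24 (edgeR, adjusted p = 0.000757).

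Among the mRNAs, mt-Nd1 had the lowest p in frontal cortex. There it ran from 249 to 617 CPM by day (median 392) and from 502 to 1473 CPM at night (median 771), and 15 of 16 day libraries lay below the lowest night library. The log2 change was -1.09 ± 0.13 (edgeR, adjusted p = 1.82e-07). In hippocampus mt-Nd1 ran from 286 to 866 CPM by day (median 435) and from 535 to 1390 CPM at night (median 806), with a change of -0.79 ± 0.14 (edgeR, adjusted p = 3.24e-05). mt-Cytb had medians of 641 CPM by day (464 to 1169) and 1073 CPM at night (753 to 1798) in hippocampus, where 12 day libraries lay below the lowest night library. In frontal cortex its medians were 605 CPM (423 to 1012) and 1105 CPM (707 to 1992), with 13 day libraries below the lowest night library. Its changes were -0.66 ± 0.13 (edgeR, adjusted p = 7.50e-05) and -0.90 ± 0.13 (edgeR, adjusted p = 2.01e-06).

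mt-Co1, the most abundant of these mRNAs, had medians of 1827 CPM by day and 2941 CPM at night in hippocampus, and of 1623 and 3174 CPM in frontal cortex. Its log2 changes were -0.63 ± 0.12 and -0.98 ± 0.14. The changes of mt-Nd2, mt-Nd4 and mt-Nd5 were smaller in size than that of mt-Nd1 in both regions. They were -0.61, -0.63 and -0.51 in hippocampus and -0.91, -0.79 and -0.78 in frontal cortex, and no difference among these genes was tested other than the ratios below.

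The light-strand mRNA mt-Nd6, a further complex I subunit, ran from 14.5 to 68.9 CPM by day (median 23.5) and from 28.1 to 93.4 CPM at night (median 41.4) in hippocampus. In frontal cortex it ran from 20.9 to 53.8 CPM by day (median 30.4) and from 30.5 to 100 CPM at night (median 61.3). In hippocampus 10 and in frontal cortex 8 of the 16 day libraries lay below the lowest night library. The log2 changes were -0.81 ± 0.19 (edgeR, adjusted p = 0.000928) and -1.01 ± 0.13 (edgeR, adjusted p = 6.71e-07).

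The tRNA genes held few counts. A full read is longer than any of these genes, and whether their counts come from mature tRNAs or from longer RNAs was not tested. mt-Tp, the proline tRNA of the light strand, ran from 0.132 to 1.23 CPM by day (median 0.430) and from 0.783 to 2.62 CPM at night (median 1.48) in hippocampus. The lowest day values of mt-Tp lay near the level of 3 counts, with 2 counts in Day Ctr0 replicate 1. Its change of -1.30 ± 0.23 had the lowest p of the members there (edgeR, adjusted p = 2.62e-05), and in frontal cortex it was -1.45 ± 0.23 (edgeR, adjusted p = 1.05e-05). mt-Tq, the light-strand tRNA for glutamine, changed by -0.86 ± 0.17 and -1.37 ± 0.20, and fell to 2 counts in frontal cortex Day Cogn replicate 4. mt-Tw, the heavy-strand tRNA for tryptophan, changed by -0.54 ± 0.13 and -0.76 ± 0.17.

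**Figure D2:**
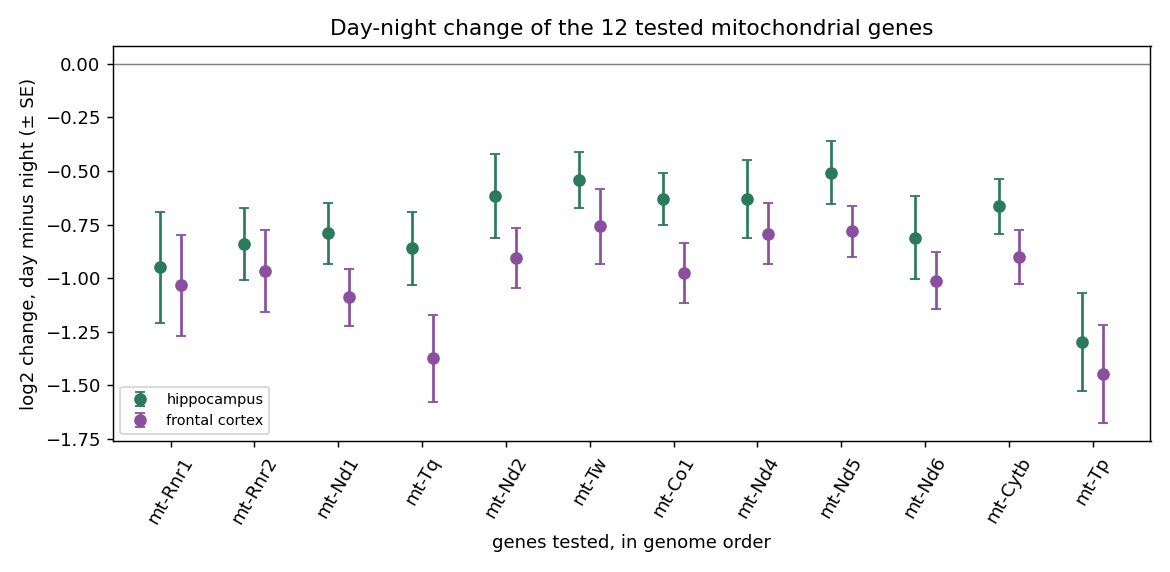
Log2 change (day minus night, ± SE) of the 12 tested genes in hippocampus and frontal cortex, in genome order, from edgeR. All points lie below 0, and the light-strand tRNA genes mt-Tp and mt-Tq have the lowest values in frontal cortex.

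Levels of cells other than microglia moved with phase. In hippocampus all 10 choroid plexus markers (Ttr, Kl and others) passed, lower by day, with a summed level of 1.80 to 929.5 CPM by day and 11.9 to 2979 CPM at night. Astrocyte markers passed for 9 of 10 there, 8 of them lower by day (322 to 528 CPM summed by day, 339 to 1869 at night), and oligodendrocyte (123 to 216, 162 to 508) and endothelial and mural markers (284 to 971, 567 to 1498) for 8 of 10 each. Neuron markers passed for 4 of 10 (127 to 424, 168 to 912). In frontal cortex 9 of 10 neuron markers (117 to 375 CPM summed by day, 166 to 951 at night), 8 astrocyte (331 to 634, 282 to 2507), 6 oligodendrocyte (107 to 275, 123 to 413) and 3 endothelial and mural markers (301 to 935, 228 to 1885) were lower by day. Of choroid plexus markers 4 were tested there and 0 passed (6.93 to 465, 8.54 to 329). Microglia and border macrophage markers went the other way: 7 and 10 of 10 were higher by day in hippocampus and 5 and 7 of 10 in frontal cortex, and with library totals alone 1 and 6 in hippocampus and 2 and 4 in frontal cortex, with none lower. Of the neutrophil and monocyte markers 1 was higher and 1 lower by day of 5 tested in hippocampus (11.5 to 37.7 CPM summed by day, 11.3 to 39.9 at night), and 0 of 6 passed in frontal cortex (13.1 to 148, 15.1 to 68.9). No marker was at 0 in all libraries of a phase and region.

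With scores of the 7 lists of other cell types as covariates, 0 of the 12 members passed in hippocampus, at a median log2 change of -0.24 (edgeR, lowest adjusted p = 0.395), where 92 of all genes passed in place of 6550, and 5 of 12 in frontal cortex, at a median of -0.38, where 2333 of all genes passed in place of 6266. The 5 were mt-Nd1, mt-Tq, mt-Co1, mt-Nd6 and mt-Cytb. No member changed direction. Phase and the makeup of the samples cannot be told apart fully here, and in bulk RNA fewer cells of a type and less RNA per cell look alike. Without replicate 4, 8 of the 12 passed in hippocampus, where mt-Rnr1 (-0.70), mt-Nd2 (-0.40), mt-Nd4 (-0.45) and mt-Nd5 (-0.37) did not (edgeR, adjusted p = 0.0803, 0.174, 0.0659 and 0.0627). Without replicate 1 or 2, mt-Nd2 did not pass (edgeR, adjusted p = 0.0656 and 0.0590). Within 1 replicate number, where 4 day and 4 night libraries are left, all 12 were lower by day in numbers 1, 2 and 4 of hippocampus and in all 4 numbers of frontal cortex. In number 3 of hippocampus 9 of 12 were lower, with a median of -0.39, and mt-Nd2 (0.09), mt-Nd4 (0.07) and mt-Nd5 (0.0017) were not. Day Cogn replicate 3 held 11344 counts of mt-Nd2 there and a mitochondrial mRNA share of 0.610%. The other day libraries of that number had 2276 to 3038 counts and shares of 0.383% to 0.439%. Day Cogn replicate 3 also had the highest hippocampal day levels of mt-Rnr1, mt-Nd1, mt-Nd2, mt-Nd4, mt-Nd5, mt-Nd6 and mt-Cytb. The part of this library in the values of number 3 was not tested. With library totals as the only scaling the median of all genes moved to -0.14 in hippocampus and 6.10% of the called genes were higher by day, against 55.5% with TMM. In frontal cortex the share fell from 49.2% to 16.1%. All 12 members were lower by day under either scaling.

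Shares of all counts scale each library by its total alone. That total includes nuclear ribosomal loci. Gm26917 held 40.1% of counts by day and 36.5% at night in hippocampus, and 31.8% and 30.3% in frontal cortex. In hippocampus the mitochondrial rRNA genes held 1.95% ± 0.622 of counts by day and 3.82% ± 1.17 at night (SD, n = 16), and in frontal cortex 2.27% ± 0.657 and 4.63% ± 1.84. The mRNA genes held 0.367% ± 0.0841 by day and 0.636% ± 0.132 at night in hippocampus, and 0.359% ± 0.0729 and 0.721% ± 0.200 in frontal cortex. The tRNA genes held 0.000385% ± 0.0000775 by day and 0.000732% ± 0.000129 at night in hippocampus, and 0.000358% ± 0.0000925 and 0.000773% ± 0.000236 in frontal cortex. The mean night share was 1.96 and 2.05 times the day share for rRNA, 1.73 and 2.01 times for mRNA, and 1.90 and 2.16 times for tRNA, in hippocampus and frontal cortex. By strand the ratios were 1.92 and 2.04 for heavy-strand genes and 1.95 and 2.13 for light-strand genes. These sums were not tested.

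**Figure D3:**
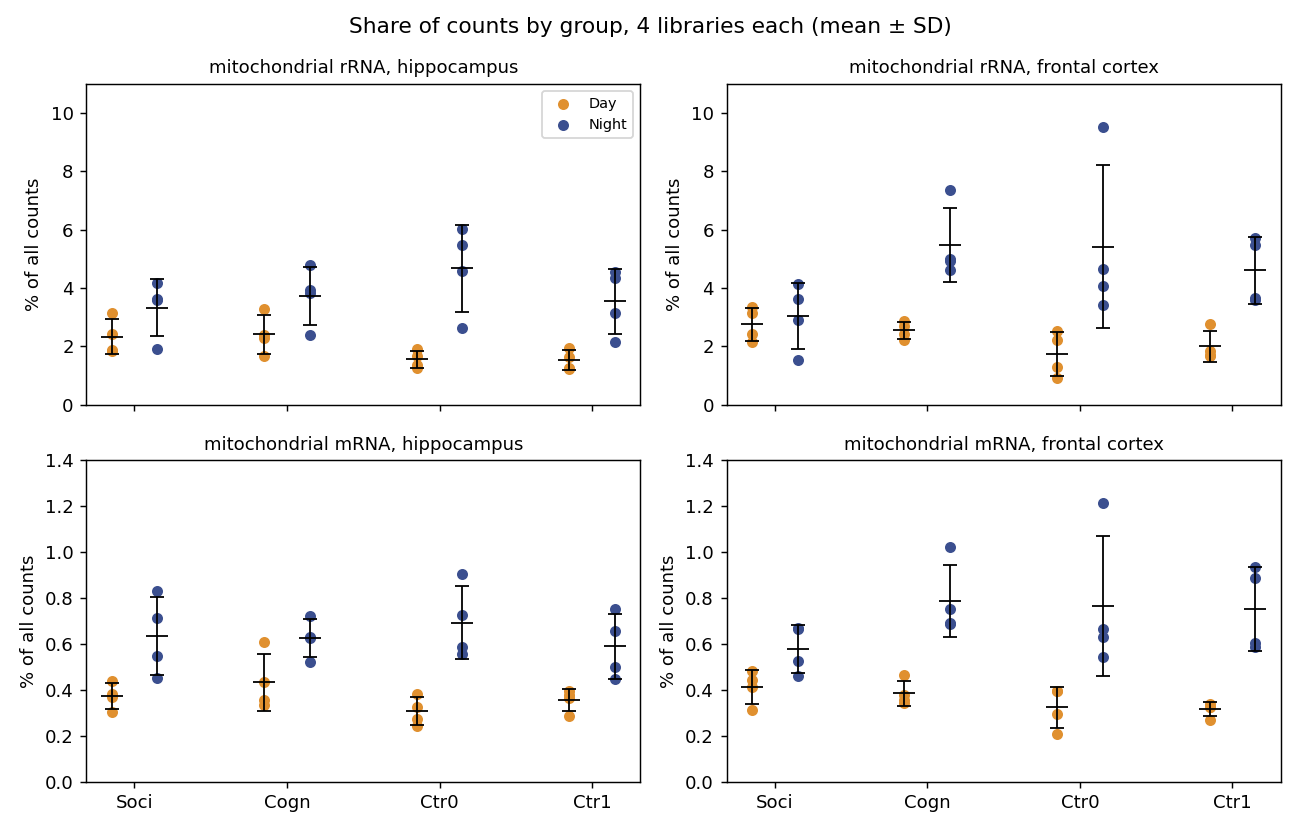
Percent of all counts held by the mitochondrial rRNA genes (top) and mRNA genes (bottom) in each of the 16 groups, with a point per library and bars for mean ± SD of 4 libraries. The night means lie above the day means in every group, and the gap of rRNA is smallest in frontal cortex Soci (2.77% by day and 3.05% at night).

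Of the nuclear copies Gm29216, the copy of the end of mt-Co1, was the only one that passed the filter on low counts between day and night. It was lower by day in hippocampus (log2 -0.59 ± 0.20; edgeR, adjusted p = 0.0180) and in frontal cortex (-0.77 ± 0.22; edgeR, adjusted p = 0.00556). Its mean level was 1.63 CPM by day and 2.48 CPM at night in hippocampus, and 1.96 and 3.37 CPM in frontal cortex. Reads of mt-Co1 and of Gm29216 cannot be told apart over most of this stretch.

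The comparison of the 4 conditions asked whether the mitochondrial genes differed with the condition label over both phases. In hippocampus 0 of 13 members passed and in frontal cortex 0 of 12, where 0% of all genes passed in either region (edgeR). At an unadjusted p under 0.05 there were 1090 of 16826 and 1094 of 16238 genes and none of the members. The members of lowest p were mt-Nd2, mt-Cytb and mt-Nd4 in hippocampus (edgeR, adjusted p = 0.668 each) and mt-Tq, mt-Nd6 and mt-Nd4 in frontal cortex (edgeR, adjusted p = 0.720 each). Mean mt-Nd2 in hippocampus ran from 137 ± 46.0 CPM in Ctr0 to 315 ± 211 CPM in Cogn by day and from 269 ± 32.4 CPM in Soci to 372 ± 139 CPM in Ctr0 at night. For mt-Cytb there the day means ran from 580.2 ± 102 to 859 ± 254 CPM and for mt-Nd4 from 132 ± 45.6 to 269 ± 118 CPM, again in Ctr0 and Cogn. Their night means ran from 897 ± 126 to 1263 ± 357 CPM and from 239.5 ± 8.04 to 346 ± 149 CPM, in Soci and Ctr0. The Day Cogn means of mt-Nd2, mt-Cytb and mt-Nd4 in hippocampus lean on replicate 3. This library had 619, 1169 and 436 CPM, the highest day levels of these genes in hippocampus. In frontal cortex mean mt-Tq ran from 0.370 ± 0.203 CPM in Cogn to 0.804 ± 0.369 CPM in Ctr0 by day and from 1.24 ± 0.239 CPM in Soci to 2.06 ± 0.684 CPM in Ctr0 at night. mt-Nd4 there ran from 144 ± 30.1 to 205 ± 58.9 CPM by day and from 209 ± 39.3 to 339 ± 96.8 CPM at night. The mean level of mt-Nd6 ran from 24.6 ± 3.47 CPM in Day Ctr0 to 37.5 ± 10.9 CPM in Day Cogn of frontal cortex (SD, n = 4), and from 47.5 ± 14.2 CPM in Night Soci to 70.5 ± 11.4 CPM in Night Cogn.

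An interaction term then asked if phase acted alike in the 4 conditions. No member passed in either region, where 0% of all genes passed in hippocampus and 0.00616% in frontal cortex (edgeR). The test had limited power: in simulated hippocampal counts it found 64 of 200 genes with a 2-fold change in Day Soci (dispersion 0.05). The simulation gave every gene this dispersion, so the power for the members themselves was not measured. The lack of calls therefore does not show that phase acted alike in the conditions. At an unadjusted p under 0.05 there were 695 of 16826 genes with 2 members in hippocampus and 603 of 16238 genes with 6 members in frontal cortex. The lowest p of the members were those of mt-Rnr1, mt-Rnr2 and mt-Te, the light-strand tRNA for glutamate, in hippocampus (edgeR's test across all genes, adjusted p = 0.999 each) and of mt-Rnr2, mt-Nd6 and mt-Nd5 in frontal cortex (edgeR, adjusted p = 1 each). In frontal cortex the 12 members had a median day-night difference of -0.31 in Soci, where 10 of 12 were lower by day, and of -0.94 in Cogn, -1.31 in Ctr0 and -1.10 in Ctr1, where all 12 were. The other two, mt-Rnr1 and mt-Rnr2, had differences of 0.25 and 0.03 in Soci. Mean mt-Rnr2 there was 22296 ± 2764 CPM by day and 23309 ± 9837 CPM at night in Soci, against 13602 ± 4194 and 44236 ± 23922 CPM in Ctr0. Mean mt-Nd5 there was 506 ± 31.2 CPM by day and 579 ± 84.1 CPM at night in Soci, against 390 ± 66.0 and 865 ± 228 CPM in Ctr0. In hippocampus mean mt-Rnr1 was 3452 ± 1561 CPM by day and 4194 ± 1499 CPM at night in Soci, against 2252 ± 1031 and 8949 ± 4535 CPM in Ctr0, and mt-Te lay at 0.0349 to 0.169 CPM by day and 0.231 to 0.665 CPM at night, near the level of 3 counts. There all 12 members were lower by day in every condition, with medians of -0.52 in Soci, -0.41 in Cogn, -1.35 in Ctr0 and -0.77 in Ctr1.

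The regions were compared over both phases. No member passed, while 16.6% of all genes did (edgeR), 62.8% of them higher in hippocampus with TMM and 33.6% with library totals alone. At an unadjusted p under 0.05 there were 4727 of 16069 genes and 1 member, mt-Nd6. The log2 differences (hippocampus minus frontal cortex) ran from -0.29 to 0.23 with a median of 0.06 and 9 of 12 above 0. With library totals alone the median was -0.07 and without replicate 3 it was -0.05, with 3 and 4 of 12 above 0. mt-Nd6 had the lowest p, at -0.29 ± 0.12 (edgeR, adjusted p = 0.0768), followed by mt-Nd1 at 0.17 ± 0.10 and mt-Tq at 0.23 ± 0.13 (edgeR, adjusted p = 0.226 and 0.246). Without replicate 4, mt-Nd6 passed, at -0.42 (edgeR, adjusted p = 0.0230). With library totals as the only scaling it was -0.42 (edgeR, adjusted p = 0.00312), and with the log2 library total added -0.43 (edgeR, adjusted p = 0.0189). It also passed with replicate number as a block and with a block for each same-numbered pair of regions, as given below. In the test of a difference in day-night change between the regions no member passed (lowest adjusted p = 0.588, mt-Tq; edgeR), where 1.19% of all genes passed. None was at an unadjusted p under 0.05 with all libraries. The difference of these changes (hippocampus minus frontal cortex) was 0.05 to 0.47 on the log2 scale, with 0.47 ± 0.27 for mt-Tq, 0.30 ± 0.18 for mt-Co1 and 0.26 ± 0.19 for mt-Nd1. Its sign was not stable: without replicate 3 it ran from -0.33 to 0.33 with 7 of 12 above 0, and with cell type scores from -0.48 to 0.38. Without replicate 4, 4 members had an unadjusted p under 0.05 and none passed. Markers of other cells also differed between the regions. All 10 choroid plexus markers (median log2 difference 2.93), 3 of 10 oligodendrocyte, 1 endothelial and mural and 1 astrocyte marker (Gfap) were higher in hippocampus. Lower there were 4 of 10 astrocyte, 2 neuron, 3 border macrophage and 5 of 8 tested neutrophil and monocyte markers. With the cell type scores as covariates no member passed between the regions, where mt-Nd6 was at -0.20 ± 0.13 (edgeR, adjusted p = 0.454).

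Ratios within a library do not depend on the scaling between libraries. The log2 ratio of mt-Nd6 counts to mt-Nd5 counts sets a single light-strand gene against a single heavy-strand gene and does not stand for the whole strands. It was lower in hippocampus (-4.15 ± 0.426, SD, n = 32) than in frontal cortex (-3.74 ± 0.231), by -0.41 (permutation test with 100000 resamples, 2-sided, p = 2e-05, adjusted over 6 tests 0.00012). The libraries overlapped, from -5.03 to -2.95 in hippocampus and from -4.35 to -3.32 in frontal cortex. The ratio was lower by day than at night in frontal cortex, at -3.86 ± 0.224 and -3.62 ± 0.175 (SD, n = 16; permutation test, p = 0.00282, adjusted 0.00846). This did not hold without replicate 1 (-0.22; permutation test, adjusted p = 0.0632) or without replicate 4 (-0.16; permutation test, adjusted p = 0.162). In frontal cortex mt-Nd6 took 0.894% of mitochondrial mRNA counts by day and 0.940% at night, and mt-Nd5 12.8% and 11.6%. In hippocampus the means of the ratio were -4.30 ± 0.313 by day and -4.00 ± 0.477 at night, which did not pass after adjustment (permutation test, p = 0.0424, adjusted 0.0848). With labels permuted within replicate numbers this difference passed, as given below. The log2 ratio of mt-Rnr1 to mt-Rnr2 was -2.61 ± 0.415 by day and -2.44 ± 0.241 at night in hippocampus and -2.55 ± 0.295 and -2.47 ± 0.295 in frontal cortex (permutation test, adjusted p = 0.239 and 0.554), and between the regions it differed by -0.02 (adjusted p = 0.816, permutation test).

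**Figure D4:**
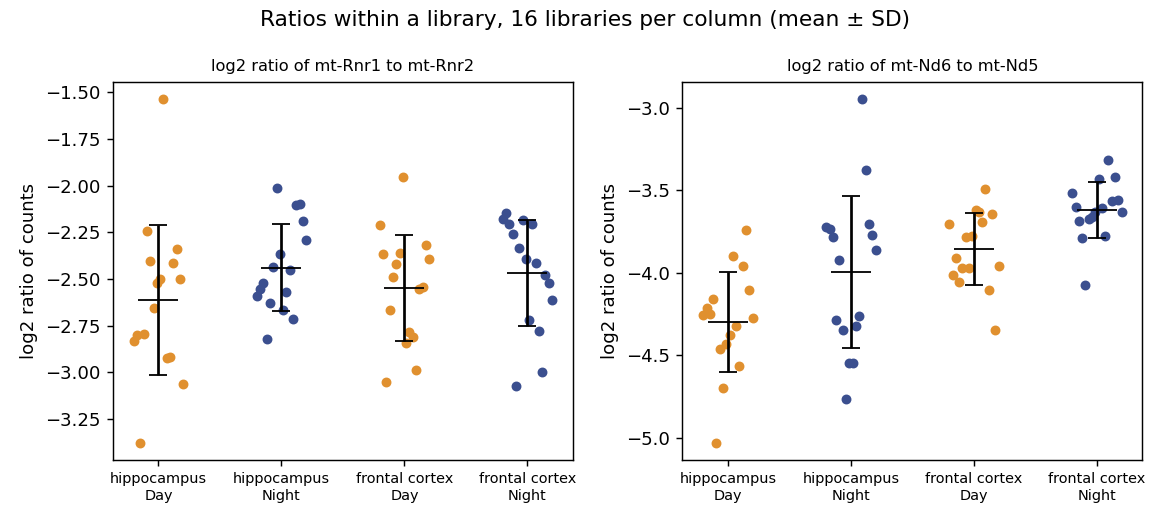
Log2 ratio of counts of mt-Rnr1 to mt-Rnr2 (left) and of mt-Nd6 to mt-Nd5 (right), with a point per library, 16 libraries in each column and bars for mean ± SD. The ratio of mt-Nd6 to mt-Nd5 is highest in frontal cortex at night, with a mean of -3.62.

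Of the nuclear genes that serve the mitochondrial genome, over the 7 lists together, 33 were higher and 12 lower by day of 159 tested in hippocampus and 42 and 11 of 158 in frontal cortex, but with library totals as the only scaling the counts were 2 and 22 and 6 and 8, so the direction of these lists turned with the scaling. With TMM these are 20.8% higher and 7.55% lower in hippocampus and 26.6% and 6.96% in frontal cortex, where 23.4% and 20.6% of all genes were higher by day and 18.8% and 21.3% lower. The values below are those with TMM. Among genes for mtDNA transcription 2 of 9 tested were higher and 0 lower by day in each region. Tefm, a transcription elongation factor, changed by 0.24 in both regions (edgeR, adjusted p = 0.0196 and 0.0114), Mterf1a, a termination factor, by 0.29 in hippocampus and Tfb1m by 0.31 in frontal cortex. Tfam, which packs mtDNA and starts its transcription, had 0.06 ± 0.05 and 0.12 ± 0.05, and Polrmt, the RNA polymerase, 0.01 ± 0.08 and -0.04 ± 0.09, none past the threshold (edgeR, adjusted p = 0.319, 0.0718, 0.936 and 0.753). Of the genes for mtRNA processing, stability and decay 11 of 22 were higher by day in hippocampus and 9 in frontal cortex, with 0 lower, against 0 higher and 2 lower in hippocampus and 2 and 0 in frontal cortex with library totals alone. Examples are Trmt10c (0.38) and Mtpap, the poly(A) polymerase (0.21), in hippocampus, and Slirp (0.45) and Grsf1 (0.24) in frontal cortex.

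For replication and upkeep of mtDNA, 4 were higher and 1 lower of 12 by day in hippocampus and 3 and 1 in frontal cortex, led by Mgme1 (0.34 and 0.39) and Polg, the DNA polymerase (0.19 and 0.20). Of 20 mitochondrial tRNA synthetases 2 were higher and 2 lower in hippocampus and 3 and 3 in frontal cortex. They include Ears2, for glutamate (0.53 and 0.44), Fars2 (-0.23) in hippocampus and Sars2 (-0.33) in frontal cortex. Lars2, for leucine, had -1.46 ± 0.81 and 0.31 ± 0.68 by day, not past the threshold (edgeR, adjusted p = 0.146 and 0.742). Of the mitochondrial ribosomal proteins 9 of 77 were higher and 6 lower in hippocampus and 17 of 76 and 4 in frontal cortex, among them Mrps2 (0.25) and Mrps28 (-0.43) in hippocampus and Mrpl48 (-0.21) and Mrps5 (-0.19) in frontal cortex.

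Among 9 regulators of mitochondrial biogenesis 3 were higher and 2 lower by day in hippocampus and 3 and 3 in frontal cortex. Ppargc1a, a coactivator that drives biogenesis, had a change of -1.14 ± 0.17 in hippocampus (edgeR, adjusted p = 1.50e-06) and -0.87 ± 0.20 in frontal cortex (edgeR, adjusted p = 0.000829). Gabpa was higher by day in both regions (0.20 and 0.23) and Pprc1 in frontal cortex (0.18). Of 10 mitochondrial housekeeping proteins 2 were higher and 1 lower in hippocampus and 5 and 0 in frontal cortex, with Hspd1, a chaperonin, at 0.38 and 0.46 and Hspa9 at 0.11 and 0.22. The medians of the 7 lists lay between -0.05 and 0.14 in hippocampus and between -0.06 and 0.13 in frontal cortex, against -0.73 and -0.97 for the mitochondrial genes.

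**Figure D5:**
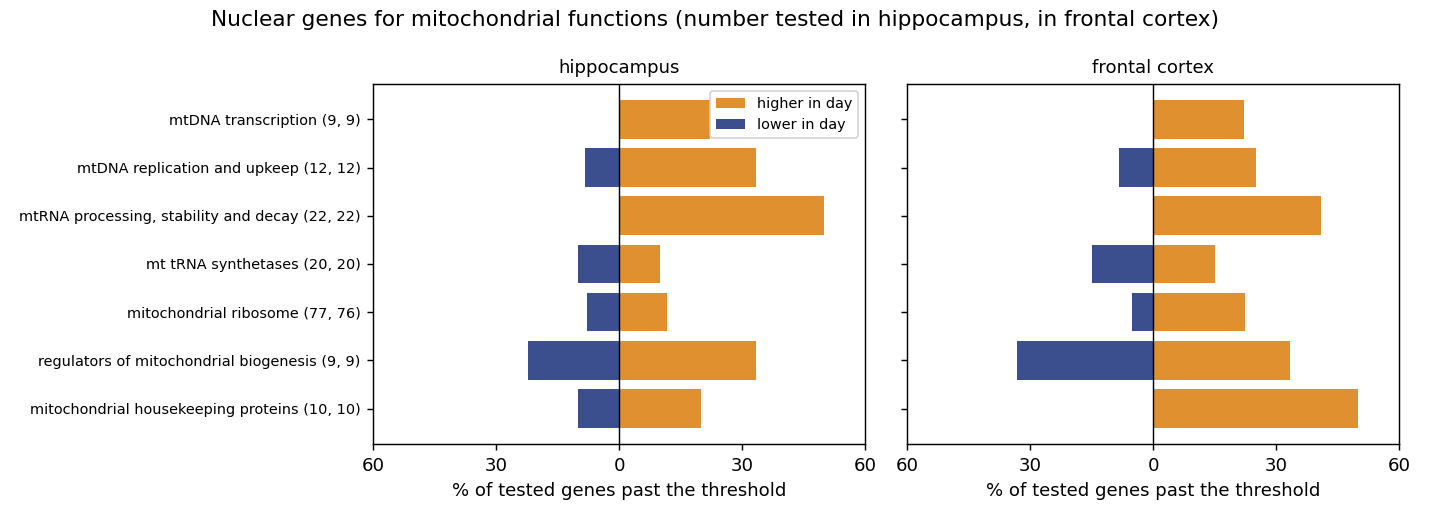
Percent of tested genes past the threshold in 7 lists of nuclear genes for mitochondrial functions, higher by day to the right and lower by day to the left, in each region. The list for mtRNA processing, stability and decay has 11 of 22 genes higher by day in hippocampus and 0 lower with TMM scaling, and 0 higher and 2 lower with library totals alone.

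Between the regions 6 of these nuclear genes were higher and 4 lower in hippocampus of 160 tested (3.75% and 2.5%, against 10.4% and 6.17% of all genes), and 2 and 7 with library totals alone. They include Polrmt (0.19; edgeR, adjusted p = 0.0260) for transcription, Tk2 (-0.15) for upkeep, Mtpap (-0.14) and Fastkd2 (-0.16) for mtRNA processing, and 5 of 77 ribosomal proteins, including Mrps6 (0.52) and Mrps26 (0.32). Lars2 was lower in hippocampus by -2.47 ± 0.56 on the log2 scale (edgeR, adjusted p = 0.000925), with a far larger SE than Polrmt (0.06) or Mrps6 (0.08). Gm23935, a locus with 2.32% of all counts on average, was also lower there, by -1.77 ± 0.37 (edgeR, adjusted p = 0.000303). A link between Lars2 and Gm23935 was not tested.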

How the data were processed

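The authors depleted ribosomal RNA from total RNA (the labels and the methods give different input amounts), sequenced single-end reads and mapped them to GRCm38.p5 with STAR 2.7.3a, and counted them per gene with featureCounts (Subread 2.0.0), per the labels. The deposited values are raw read counts per gene, not normalized. The strand and multi-mapping settings are not given in the sources used here. Counts were matched by gene ID to GENCODE M21 (49412 of 49671 genes). Genes were filtered with filterByExpr, scaled by TMM and tested with edgeR 4.0.16 (quasi-likelihood, R 4.3.3), with Benjamini-Hochberg adjustment over all genes at 0.05. Day and Night were compared within a region over 16 libraries each, conditions within a region with phase kept apart, and regions over 32 libraries each. Single ratios were tested by permutation in scipy 1.17.1. Levels are CPM with TMM scaling unless a share of counts is given. The fits were tested on simulated data. The members and lists were chosen with earlier results of these data known. All 37 members are accounted for, and values are given for the rRNA and mRNA genes, the tRNA genes with most counts, and the 3 members of lowest p in each comparison. Of nuclear lists the 2 genes of lowest p are named, with Tfam, Polrmt, Ppargc1a and Lars2. DESeq2 1.42.0 was an alternative.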

Additional observations from a re-analysis of the deposited data

Results flagged for a closer look

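Of 80 groups of 4 libraries examined (5 measures in 16 groups), 4 held a library that stood apart from the other 3 by Dixon's test, and chance gives about 4. The share of counts of the mitochondrial rRNA genes was 2.78% in frontal cortex Day Ctr1 replicate 2, against 1.68% to 1.85% in the others. It was 7.34% in frontal cortex Night Cogn replicate 2, against 4.62% to 4.98%. The level of mt-Nd6 was 53.8 CPM in frontal cortex Day Cogn replicate 4, against 30.3 to 33.3 CPM. The log2 ratio of mt-Rnr1 to mt-Rnr2 was -2.10 in hippocampus Night Soci replicate 4, against -2.67 to -2.59.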

How the results depend on the processing

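The count of members lower by day stayed within 1.5 times of 12 in both regions under every alternative run other than cell type marker scores, which gave 0 in hippocampus and 5 in frontal cortex. Without 1 replicate number it ran from 8 to 12 in hippocampus and was 12 in frontal cortex. With no filter on counts it was 14 of 19 and 13 of 18. Leaving out hippocampus Day Ctr1 replicates 1 and 4, chosen after seeing the data because an earlier account names an exchange of both as possible, gave 12. The count among conditions and for both kinds of difference in day-night change was 0 under every alternative run. The count between the regions was 1 (mt-Nd6) with library totals alone, with the log2 library total added, with the replicate block (-0.32, adjusted p = 0.0307), with the replicate block of pairs (-0.35, adjusted p = 0.00886, both edgeR) and without replicate 4, and from 0 to 1 over the replicates left out. The log2 ratio of mt-Nd6 to mt-Nd5 passed in hippocampus with labels permuted within the replicate block (-0.30, adjusted p = 0.0207, permutation test), and its day-night difference in frontal cortex ran from -0.29 to -0.16 without 1 replicate number. The ratio of mt-Rnr1 to mt-Rnr2 turned to 0.021 and 0.0049 by day in frontal cortex without replicates 1 and 3 (range -0.17 to 0.021), and to 0.11 between the regions without replicate 1 (range -0.084 to 0.11). The causes were not tested. Whether replicate numbers mark pairs or batches is not stated. Deviations of same-numbered libraries over 5000 genes correlated from -0.71 to 0.89 in hippocampus (median 0.056, against -0.041 between different numbers). In frontal cortex they ran from -0.65 to 0.81 (median 0.112, against -0.048). Between regions of the same phase and condition they ran from -0.76 to 0.83 (median -0.015, against -0.0043). Same-numbered libraries of a region were thus slightly more alike in the median. The mitochondrial rRNA share in hippocampus at night was 1.92% to 2.63% in number 1 and 3.15% to 6.025% in the other numbers. With the replicate block 12 members were called between day and night in each region. The folds of the rRNA and mRNA shares moved by less than 1 SD in all 24 alternatives. Depth limits the tRNA genes, of which 1 had more than 3 counts in every library. Over all genes, library totals alone called 3862 among conditions in hippocampus in place of 0, and 4293 and 4065 between day and night in place of 6550 and 6266. Leaving out 1 replicate number called as few as 4319 (hippocampus, without replicate 1) and 3941 (frontal cortex, without replicate 2), up to 328 among conditions in hippocampus (without replicate 1), and between the regions 1322 to 1382 in place of 2667 (without replicates 2 and 3). Cell type scores gave 728 between the regions and 716 in place of 191 for the regional difference in day-night change, which was 92, 15 and 48 without replicates 1, 2 and 4. With the log2 library total added 1693 passed between the regions. DESeq2 called 6 genes among conditions in hippocampus, and 13 and 9 for the difference in day-night change among conditions, in place of 0 and 1 (hippocampus, frontal cortex).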

Other observations

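The makeup of the mitochondrial mRNA counts, spread over 7 genes, was led by mt-Co1, which took 48.1% ± 3.78 of them by day and 47.1% ± 3.08 at night in hippocampus (SD, n = 16), and 47.8% ± 2.48 and 48.8% ± 3.40 in frontal cortex. The share of mt-Nd1 was 11.9% ± 0.957 by day and 13.3% ± 0.541 at night in hippocampus and 12.2% ± 0.750 at night in frontal cortex. That of mt-Nd5 was 12.8% ± 0.989 and 11.7% ± 0.783, and 12.8% ± 0.652 and 11.6% ± 1.09. These shares were not tested.

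Red cell genes, read as a measure of blood in the samples, passed for 0 of 5 in hippocampus and for 5 of 5 in frontal cortex, where all were lower by day (6.53 to 143 CPM summed by day and 23.5 to 381 CPM at night). Their part in the day-night changes was not tested.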
